A study of Mus musculus with 24 samples.

Results

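The 10 genes described here encode phospholipases A2 and were chosen by family name, with Pla2g4f included because its signal differed between genotypes in liver. They are Pla2g4a, Pla2g4b, Pla2g4d, Pla2g4e, Pla2g4f, Pla2g6, Pla2g7, Pla2g12a, Pla2g15 and Pla2g16 (current symbol Plaat3), out of 21368 genes named on the array. Expression was measured on 24 one-colour Agilent arrays. They came from 6 female mice, 3 of each genotype, each of which gave liver, brain, heart and muscle. The KI mice carried the I312R knockin of Rap1 (gene symbol Terf2ip), made with CRISPR/Cas9 and backcrossed 4 times to C57BL6 mice (C57BL/6N in the study's methods). The labels call them RAP1 MUT. The study describes them as homozygous. The other 3 mice were wild type (WT, RAP1 WT in the labels), and no other treatment or allele is named for either genotype. RAP1 is a telomere protein of the shelterin complex, and the mutated residue is needed for its binding to TRF2 at telomeres. In homozygous KI embryonic fibroblasts and brain, the study also reports less RAP1 protein and a larger cytosolic share of it. The comparison of genotypes does not separate these changes from the loss of RAP1 at telomeres. The letters A to C stand for the KI mice, and D to F for the WT mice. Mice C and F were 14 months old, and the others were 15 months old. The study calls the WT mice littermate controls, and the labels do not say which mice shared a litter.

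Phospholipases A2 cut the fatty acid at the middle position of a membrane phospholipid, which leaves a lysophospholipid and a free fatty acid. When that fatty acid is arachidonic acid, cyclooxygenases and lipoxygenases turn it into prostaglandins, thromboxanes and leukotrienes. The Pla2g4 genes encode the cytosolic enzymes, of which the Pla2g4a enzyme is the calcium-activated form best known for releasing arachidonic acid. Pla2g4b, Pla2g4d, Pla2g4e and Pla2g4f lie near each other on chromosome 2, and the enzyme of Pla2g4e is known as an N-acyltransferase that makes precursors of endocannabinoid-like lipids. The remaining members act elsewhere. Pla2g6 encodes a calcium-independent enzyme, Pla2g12a a secreted one and Pla2g15 the lysosomal one. Pla2g7 encodes the enzyme that inactivates platelet-activating factor, and Pla2g16 an enzyme abundant in fat cells.

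The stretch around the start of Pla2g4f is shown because this gene had the widest gap between genotypes among the members. It lies at chr2:120314116-120314415 on the minus strand of GRCm38.p6 and comes from RefSeq, from 250 bases before to 50 bases after the start. The capitals mark a run of 21 bases that stands there in 2 adjacent copies, starting 88 and 67 bases before the start of the gene. Of 32851 mouse promoters of the same length, 1.21% held a run of 21 bases repeated without overlap. Among the 9 members with a promoter, only Pla2g4f did. The 21 bases are the length of the Pla2g4f run itself, so this share is a description and no test.
Pla2g4f: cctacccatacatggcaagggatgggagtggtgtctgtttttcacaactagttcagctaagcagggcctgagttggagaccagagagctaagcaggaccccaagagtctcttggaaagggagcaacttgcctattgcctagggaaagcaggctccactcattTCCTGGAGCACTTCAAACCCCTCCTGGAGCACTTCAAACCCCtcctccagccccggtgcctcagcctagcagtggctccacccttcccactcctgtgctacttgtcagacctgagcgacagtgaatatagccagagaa

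The promoters of Pla2g4a (2 starts, at chr1:149961241-149961540 and chr1:149922390-149922689, both minus strand), Pla2g7 (chr17:43568201-43568500, plus strand) and Pla2g15 (chr8:106150104-106150403, plus strand) are shown beside it, since these genes also had higher signal in every KI liver. There the capitals mark the GC box letters GGGCGG or, on the other strand, CCGCCC, and in Pla2g4a the TATA box letters TATAAA on the other strand, TTTATA. The first Pla2g4a start held none of these.
Pla2g4a, first start: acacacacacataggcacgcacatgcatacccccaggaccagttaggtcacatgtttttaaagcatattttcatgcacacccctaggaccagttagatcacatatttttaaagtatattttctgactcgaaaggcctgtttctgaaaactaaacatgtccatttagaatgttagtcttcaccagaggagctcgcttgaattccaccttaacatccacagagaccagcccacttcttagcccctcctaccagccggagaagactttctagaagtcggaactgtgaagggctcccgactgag
Pla2g4a, second start: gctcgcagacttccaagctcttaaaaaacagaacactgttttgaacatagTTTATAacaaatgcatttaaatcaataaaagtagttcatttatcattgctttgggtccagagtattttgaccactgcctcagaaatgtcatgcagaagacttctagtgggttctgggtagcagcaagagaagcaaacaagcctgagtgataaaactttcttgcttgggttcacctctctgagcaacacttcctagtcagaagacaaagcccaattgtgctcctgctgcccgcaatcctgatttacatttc
Pla2g7: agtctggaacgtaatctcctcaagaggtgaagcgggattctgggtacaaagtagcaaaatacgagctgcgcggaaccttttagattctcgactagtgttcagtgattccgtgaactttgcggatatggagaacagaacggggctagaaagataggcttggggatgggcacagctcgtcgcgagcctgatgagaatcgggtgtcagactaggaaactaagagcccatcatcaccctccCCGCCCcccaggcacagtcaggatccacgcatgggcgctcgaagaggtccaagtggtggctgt
Pla2g15: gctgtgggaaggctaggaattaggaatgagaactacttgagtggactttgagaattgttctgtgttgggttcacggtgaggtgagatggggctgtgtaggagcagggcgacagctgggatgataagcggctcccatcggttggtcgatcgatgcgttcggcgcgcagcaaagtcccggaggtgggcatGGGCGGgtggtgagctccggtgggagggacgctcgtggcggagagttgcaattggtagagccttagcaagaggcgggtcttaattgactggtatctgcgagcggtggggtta

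Pla2g4f held 2 CpG dinucleotides. The promoters of Pla2g4a held 6 and 2, that of Pla2g7 17 and that of Pla2g15 19. The median over all 32851 promoters was 7. The GC box was in 35.7% of all promoters, and in those of Pla2g6, Pla2g7, Pla2g15 and Pla2g16. The TATA box letters TATAAA, searched on both strands, stood in 13.6% of all promoters, and among the members in those of Pla2g4a and Pla2g4d. The telomeric repeat unit TTAGGG was in 10.6% of all promoters and in 0 of the 11 member promoters, which come from 9 of the 10 genes. Such a match or its absence describes these 300 bases and says nothing about binding. Pla2g4b is named only.

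A level below is log2 of the background-corrected signal minus the 75th percentile of the same array, so a gene at 0 had the signal of that percentile. Each gene is read by 1 probe, or the brighter of 2 for Pla2g7, and levels of different probes were not compared. Pla2g4a, Pla2g4b, Pla2g6, Pla2g7, Pla2g12a, Pla2g15 and Pla2g16 were well above background on all 24 arrays. Pla2g4e was so on 18 arrays, Pla2g4d on 5 and Pla2g4f on 3.

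**Figure D1:**
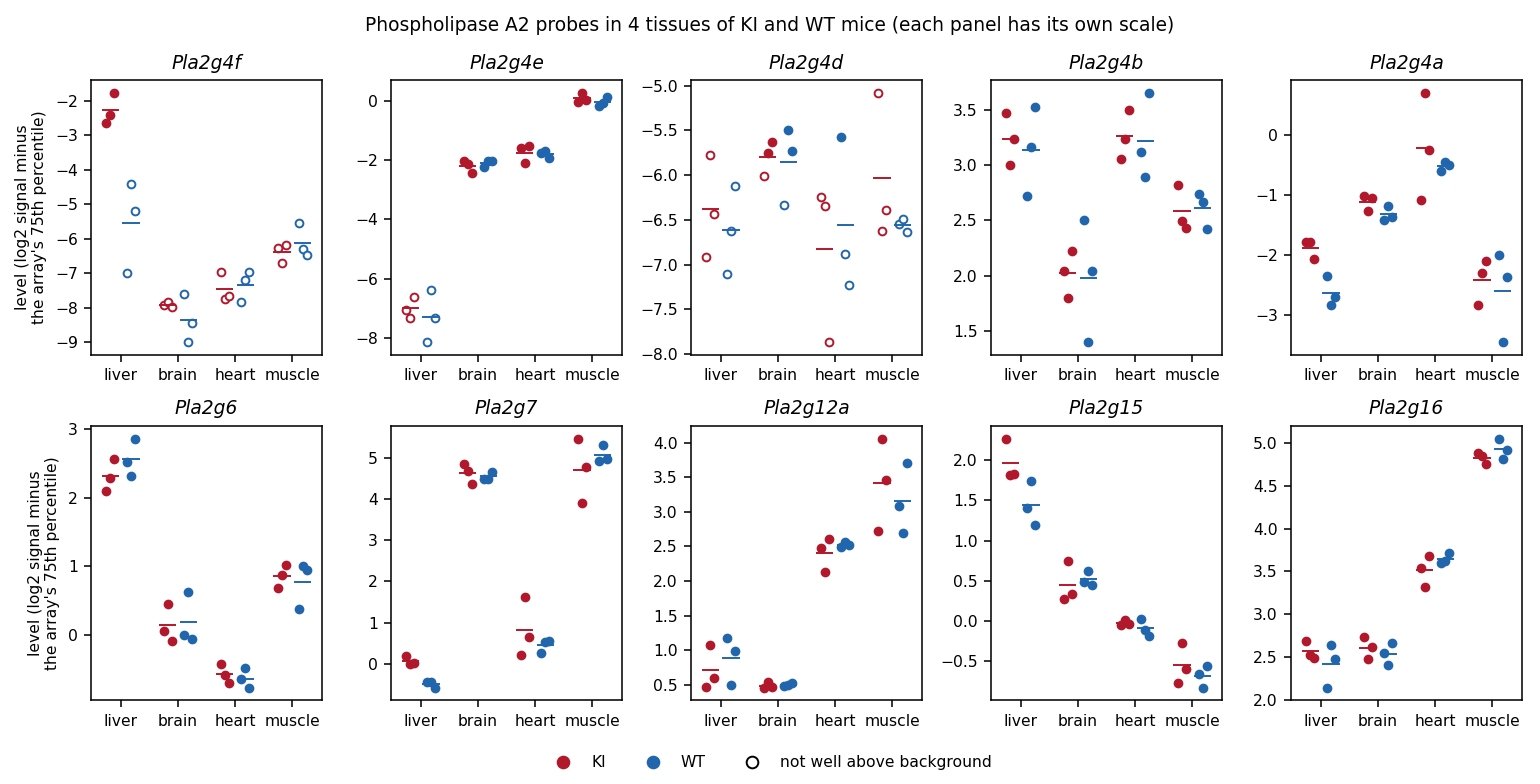
Level (log2 signal minus the array's 75th percentile) of the 10 phospholipases A2 in each tissue, with 1 point per array, red for KI, blue for WT, a line at each group mean and open points for arrays not well above background. Pla2g4f has filled points only in the 3 KI livers, and most other members differ far more between tissues than between genotypes.

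Pla2g4f, one of the less studied cytosolic enzymes, was the member with the most restricted signal. In the KI livers its level was -2.63 in mouse A, -2.42 in mouse B and -1.76 in mouse C, and all 3 arrays were well above background. In the WT livers it was -7.00 in mouse D, -4.41 in mouse E and -5.21 in mouse F, and none was. The genotypes did not overlap, and the nearest pair was KI mouse A and WT mouse E. Pla2g4f was chosen by this difference, so no test is given for it.

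The KI livers averaged -2.27 ± 0.45 (SD, n = 3) and the WT livers -5.54 ± 1.33 (SD, n = 3), a measured difference of 3.27 on the log2 scale. The detection level of an array, its lowest level among probes well above background, ran from -6.05 to -4.32 in the WT livers. With each WT value below it set to that level, the KI livers were 7.57-fold higher with this background correction. This is not a strict lower bound, because a probe can lie above that level without being well above background. In WT mouse F, Pla2g4f was at -5.21 with a detection level of -5.22. With normexp correction the measured difference was smaller, 1.59 on the log2 scale. The KI liver of mouse C, the highest of the 3, also carried skeletal muscle transcripts. Its mean over 8 skeletal muscle markers was 0.98, against -5.14 to -4.24 in the other livers. No muscle array had Pla2g4f well above background, and without mouse C the liver difference was 3.01.

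Outside the liver, 0 of 18 arrays had Pla2g4f well above background. Its measured level ran from -9.00 to -7.62 in brain, from -7.84 to -6.97 in heart and from -6.71 to -5.56 in muscle. KI and WT arrays overlapped in each of these tissues. Levels this low have no order, and they do not show that the transcript was absent.

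Pla2g4f was well above background on 3 of the 24 arrays, so a correlation with it rests mostly on values at background and on the liver difference by which it was chosen. With that limit, the genes with the highest correlation over the 24 arrays were Serpina12 (Pearson's r = 0.97), Fam50b (0.92), Taldo1 (0.92), Sult3a2 (0.92) and Rpn2 (0.91), among 17292 genes compared. Serpina12, which encodes the adipokine vaspin, was well above background on 4 arrays. Its liver level was -3.79, -3.77 and -2.73 in KI mice A, B and C and -6.45, -3.61 and -5.16 in WT mice D, E and F. The genotypes overlapped there, because WT mouse E lay above KI mice A and B. In brain, heart and muscle no array had Serpina12 well above background, as for Pla2g4f. Taldo1 and Rpn2 were instead measured on every array and were highest in liver. These correlations are descriptions over arrays that share tissue, slide and scaling.

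The neighbours of Pla2g4f on chromosome 2 were examined in liver. Of the 5 annotated genes on each side, 7 had a probe, and 5 of these passed the detection filter in liver. Their KI minus WT differences were 0.20 for Ehd4, -0.18 for Vps39, -0.19 for Tmem87a, 0.09 for Ganc and 0.18 for Capn3. None passed the threshold, an adjusted p of 0.05 in limma over 14084 genes, and the adjusted p ran from 0.50 for Ehd4 to 0.84 for Ganc. None had an unadjusted p under 0.05 either. Ehd4 was higher in every KI liver than in every WT liver, as were 12.2% of all genes tested there. The other 2, Pla2g4e and Pla2g4d, were not well above background in any liver.

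**Figure D2:**
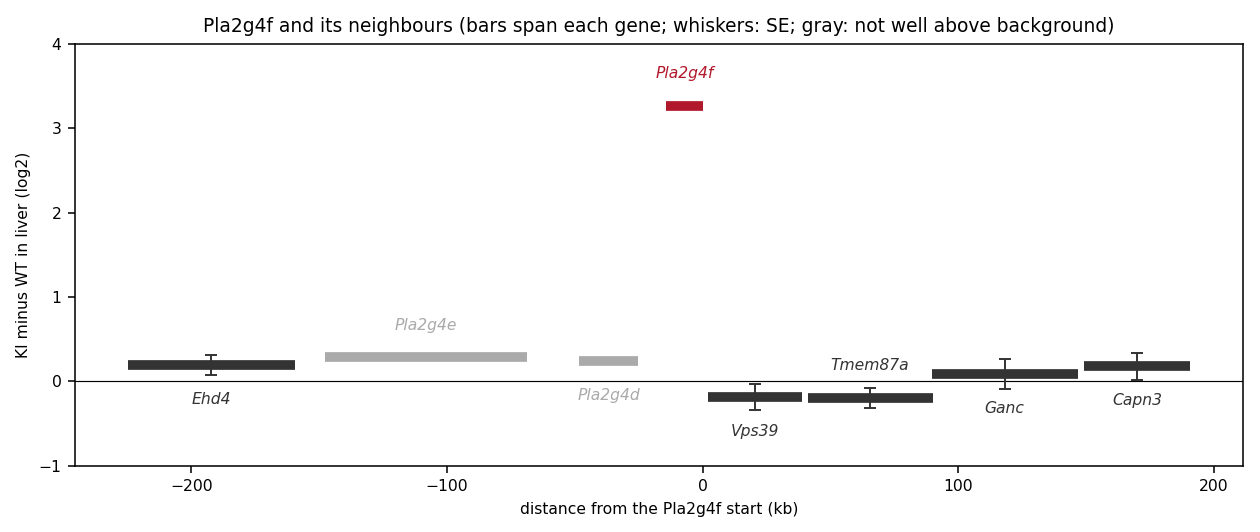
KI minus WT difference in liver (log2, vertical axis) of Pla2g4f and its neighbours against the distance from the Pla2g4f start in kb. Bars span each gene, whiskers are the SE, and gray marks genes not well above background. Pla2g4f stands at 3.27, and the 5 tested neighbours lie between -0.19 and 0.20.

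Among the members other than Pla2g4f, 7 were tested in liver and none passed the adjusted threshold. Over all genes tested, 0% did, in liver as in the other tissues. At an unadjusted p under 0.05, Pla2g4a, Pla2g7 and Pla2g15 were higher in KI liver, 3 of the 7 members. The background was 7.48% of 14084 genes for this direction and 11.7% for both. The same 3 members had no overlap between genotypes, against 12.2% of all genes for this direction and 19.7% for either. The median difference over the 7 was 0.15, against 0.04 over all genes tested.

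Pla2g4a encodes the main arachidonate-releasing enzyme. Its liver level was -1.79, -1.78 and -2.06 in KI mice A, B and C and -2.34, -2.83 and -2.69 in WT mice D, E and F. Each KI liver lay above each WT liver. The difference was 0.74 (SE 0.17), or 1.67-fold, with an unadjusted p of 0.0037 and an adjusted p of 0.36 in limma.

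Pla2g7, the platelet-activating factor acetylhydrolase, read 0.18, 0.01 and 0.02 in the KI livers and -0.45, -0.44 and -0.58 in the WT livers. The groups stood apart by more than the spread within either. The difference was 0.56 (SE 0.12), or 1.47-fold, with an unadjusted p of 0.0025 and an adjusted p of 0.36 in limma. The second, dimmer probe of Pla2g7 differed by 0.98 with an adjusted p of 0.54, with KI values from -3.84 to -3.11 and WT values from -5.09 to -4.19. The WT value of mouse E, the lowest, was not well above background, so the size of this difference is uncertain.

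Pla2g15, the lysosomal enzyme, read 2.27, 1.81 and 1.82 in the KI livers and 1.40, 1.74 and 1.19 in the WT livers. WT mouse E came within 0.1 of KI mouse B. The difference was 0.52 (SE 0.20), or 1.44-fold, with an unadjusted p of 0.037 and an adjusted p of 0.41 in limma.

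The other 4 tested members overlapped between genotypes in liver. Pla2g6 differed by -0.25 (SE 0.19) and Pla2g12a by -0.18 (SE 0.24), while Pla2g16 differed by 0.15 (SE 0.16) and Pla2g4b by 0.10 (SE 0.24). Pla2g4b overlaps the read-through gene Gm28042 (Jmjd7-pla2g4b) at chr2:120027483-120043033, so its probe may read both transcripts.

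The livers also differed in macrophage markers. The mean level of 8 such markers ran from 1.32 to 1.75 in the KI livers and from 0.66 to 1.02 in the WT livers. Of these 8, Adgre1, C1qa, Cd68, Clec4f, Csf1r and Lyz2 were higher in every KI liver than in every WT liver, Marco overlapped, and Cd163 was not well above background in any liver. A list of 6 neutrophil markers ran from -1.27 to -1.06 in KI and from -2.11 to -1.49 in WT livers, and one of 7 bile duct markers from -2.50 to -2.09 and from -2.70 to -2.57. Of these, 3 of the 6 neutrophil and 2 of the 7 bile duct markers were higher in every KI liver. Over all genes tested in liver, 12.2% were higher in every KI liver than in every WT liver. The bile duct marker Cldn4 was well above background only in KI mouse A. Their part in the liver values of Pla2g4a, Pla2g7, Pla2g15 and Pla2g4f was not tested. In these bulk samples, more cells of a type and more RNA per cell cannot be told apart.

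**Figure D3:**
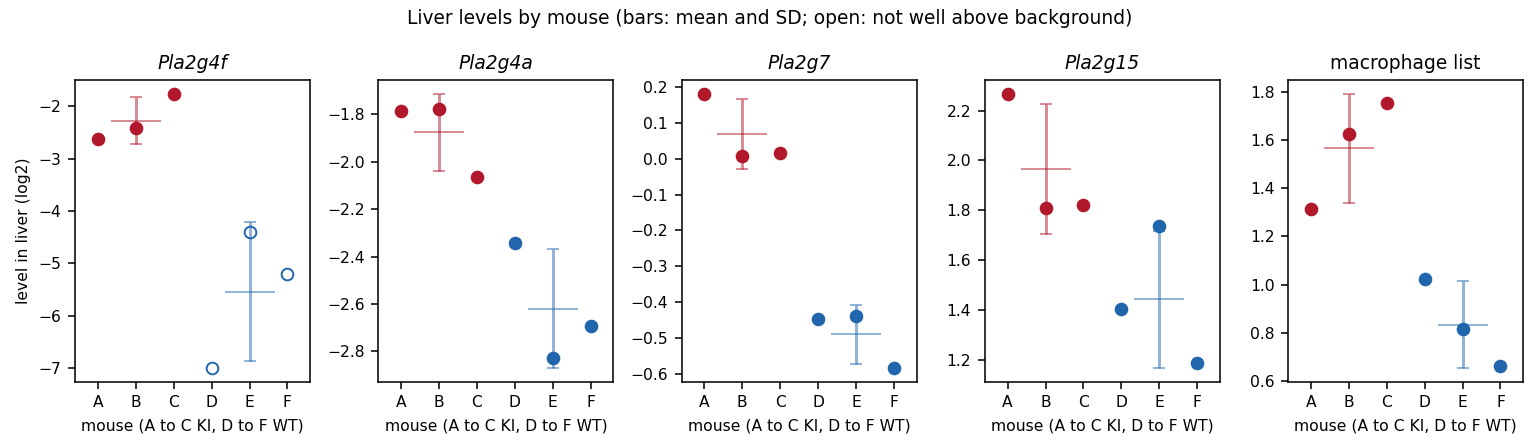
Liver levels (log2) by mouse for Pla2g4f, Pla2g4a, Pla2g7, Pla2g15 and the mean of 8 macrophage markers, with KI mice A to C in red, WT mice D to F in blue, bars at the mean and SD and open points for arrays not well above background. In all 5 panels each KI liver lies above each WT liver, and the vertical scales differ.

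In brain, heart and muscle, 8 members were tested in each tissue, and for none did the genotypes stand apart. No member passed the adjusted threshold in limma, and none had an unadjusted p under 0.05. Over all genes, an unadjusted p under 0.05 was found for 0.791% in brain, 1.63% in heart and 0.851% in muscle. The genotypes did not overlap for 2.86% of genes in brain, 5.02% in heart and 3.54% in muscle. The differences ran from -0.11 for Pla2g4e to 0.21 for Pla2g4a in brain, from -0.13 for Pla2g16 to 0.37 for Pla2g7 in heart, and from -0.35 for Pla2g7 to 0.25 for Pla2g12a in muscle.

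In heart, KI mouse B stood apart. Its level was 0.70 for Pla2g4a, against -1.09 and -0.25 in KI mice A and C and -0.60, -0.44 and -0.51 in the WT mice. For Pla2g7 it was 1.61, against 0.22 to 0.65 on the other 5 hearts. The same array had the highest mean of 7 adipocyte markers among hearts, 1.33 against -1.39 to -0.14. It also had the highest macrophage mean, 0.37 against -0.77 to -0.29, and the highest mean of 7 cardiomyocyte markers, 7.93 against 4.99 to 7.21. The last came from the atrial genes Myl7 (7.44 against -3.26 to 4.27), Myl4 (8.73 against 1.11 to 6.99) and Nppa (9.03 against 4.49 to 7.69). Their part in the heart values was not tested. Without mouse B the heart difference was -0.15 (SE 0.25) for Pla2g4a and -0.02 (SE 0.18) for Pla2g7.

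In muscle, KI mouse B also gave the lowest Pla2g7 level, 3.91 against 4.77 to 5.47, and the highest Pla2g12a level, 4.06 against 2.70 to 3.70. This array carried transcripts of other tissues, with a mean of -1.45 over 9 mammary markers against -5.32 to -4.43 and of -1.54 over 12 stratified epithelium markers against -4.04 to -3.45. Its neutrophil mean was 2.64, and that of WT mouse D was 2.73, against -4.50 to -3.70 in the other 4 muscles. Their part in the muscle values was not tested. Without mouse B the muscle difference was 0.05 (SE 0.26) for Pla2g7 and -0.07 (SE 0.36) for Pla2g12a.

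**Figure D4:**
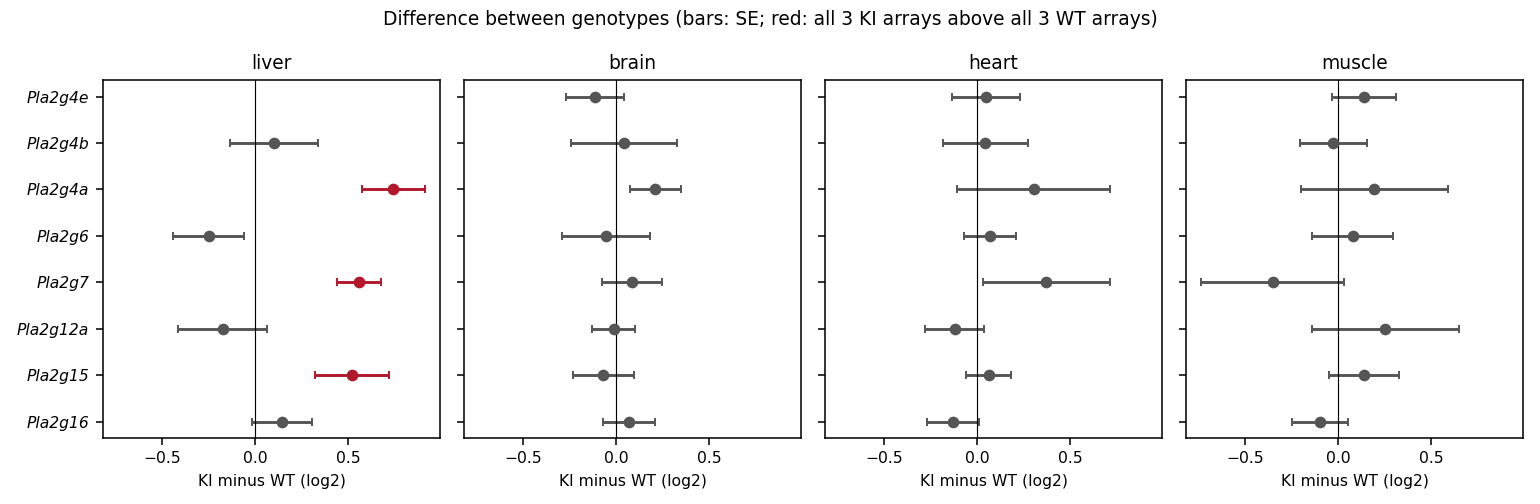
KI minus WT difference (log2, horizontal axis) with its SE for each tested member except Pla2g4f in the 4 tissues, in red where each KI array lay above each WT array. Red points appear only in liver, for Pla2g4a (0.74), Pla2g7 (0.56) and Pla2g15 (0.52).

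Taking the 4 tissues of each mouse together, Pla2g4a differed by 0.36 (SE 0.17), with an unadjusted p of 0.068 and an adjusted p of 0.98 in limma. Pla2g7 differed by 0.17 (SE 0.10) and Pla2g15 by 0.16 (SE 0.09). None of the 8 members tested passed the threshold or an unadjusted p of 0.05, and 0% of all 17293 genes passed it. Whether KI minus WT differed between tissues was tested with a moderated F-test in limma. It called 0% of the same genes and none of the 8 members, and the smallest unadjusted p among them was 0.12, for Pla2g15. The liver effects of Pla2g4a, Pla2g7 and Pla2g15 were therefore not shown to differ from those in the other tissues.

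Between tissues most members differed, as did most of all genes tested. Pla2g4e and Pla2g16 shared an order of mean levels, muscle, heart, brain and liver. Pla2g12a differed from it only in the places of brain and liver. The orders of the remaining tested members were not alike. The rule for choosing members did not use these contrasts, except for Pla2g4f, whose tissue levels are given above without a test. Of the 7 members measured on every liver and brain array, 5 differed between these tissues, where 85% of all genes did. The counts were 6 of 7 for liver against heart (79.3% of all genes) and 6 of 7 for liver against muscle (83.4%). They were 7 of 8 for brain against heart (80.8%), 7 of 8 for brain against muscle (83.4%) and 8 of 8 for heart against muscle (68.1%).

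Pla2g7 had the widest tissue differences among members measured in all 4 tissues. Over the 6 arrays of a tissue its level averaged 4.89 ± 0.55 (SD) in muscle, 4.59 ± 0.17 in brain, 0.64 ± 0.51 in heart and -0.21 ± 0.32 in liver. Muscle and brain did not pass the threshold for a difference (0.30, SE 0.22, adjusted p = 0.21 in limma). The second, dimmer probe did not place muscle above brain. It read from 1.09 to 2.09 in brain and from -1.14 to 1.58 in muscle. Brain lay 3.95 (SE 0.22) above heart, or 15.4-fold, and heart 0.85 (SE 0.22) above liver. All muscle and brain arrays lay above all heart and liver arrays.

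Pla2g4e, the N-acyltransferase gene of the cluster, was highest in muscle. Its 6 muscle arrays ran from -0.18 to 0.28, its heart arrays from -2.10 to -1.53 and its brain arrays from -2.44 to -2.02. Muscle lay 1.80 (SE 0.21) above heart, while heart and brain did not pass the threshold for a difference (0.38, SE 0.21, adjusted p = 0.10 in limma). No liver array had it well above background. With the liver values set to the detection level of their arrays, muscle was 33.7-fold, heart 9.69-fold and brain 7.45-fold higher. These too are not strict lower bounds. Pla2g4d, its neighbour, was well above background on 4 brain arrays and 1 heart array only, with levels from -7.87 to -5.08 over all 24, and was not tested.

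Pla2g6 and Pla2g15 were both highest in liver. Pla2g6 averaged 2.45 ± 0.27 (SD, n = 6) there, then 0.82 in muscle, 0.16 in brain and -0.60 in heart, and each step passed the threshold. Liver lay 1.63 (SE 0.15) above muscle. Pla2g15 averaged 1.70 ± 0.37 in liver, followed by brain at 0.49, heart at -0.06 and muscle at -0.61. Each of its steps passed the threshold too, and liver lay 1.22 (SE 0.12) above brain. The 2 genes thus shared liver as the highest tissue and differed in the order below it.

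Pla2g12a and Pla2g16 were both highest in muscle and second highest in heart. Pla2g12a, the secreted enzyme, averaged 3.29 ± 0.55 (SD, n = 6) in muscle, 2.47 ± 0.17 in heart, 0.80 ± 0.32 in liver and 0.49 ± 0.03 in brain. Its liver and brain levels did not pass the threshold for a difference (0.31, SE 0.20, adjusted p = 0.15 in limma). Pla2g16, the enzyme abundant in fat cells, averaged 4.87 ± 0.10 in muscle, 3.58 ± 0.14 in heart, 2.58 ± 0.12 in brain and 2.50 ± 0.19 in liver. Its brain and liver levels did not pass the threshold for a difference either (0.08, SE 0.09, adjusted p = 0.44 in limma). The mean of 7 adipocyte markers was likewise highest in muscle, from 2.33 to 4.29, then heart, from -1.39 to 1.33, and lower in liver, from -4.54 to -3.08, and brain, from -6.88 to -5.45. Its part in the Pla2g16 order was not tested.

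Pla2g4a was highest in heart, at -0.36 ± 0.59 (SD, n = 6), followed by brain at -1.21 ± 0.16. Liver, at -2.25 ± 0.45, and muscle, at -2.50 ± 0.54, did not pass the threshold for a difference (0.26, SE 0.25, adjusted p = 0.35 in limma). Heart lay 0.85 (SE 0.25) above brain, and brain 1.03 (SE 0.25) above liver. Pla2g4b had means of 3.24 in heart, 3.19 in liver, 2.60 in muscle and 2.0 in brain. Heart and liver did not pass the threshold for a difference (0.06, SE 0.18, adjusted p = 0.78 in limma).

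All liver arrays lay on 1 slide and all muscle arrays on another. Liver and heart shared no slide either, nor did brain and muscle. For these pairs tissue and slide cannot be told apart directly. With the slide as a block, which uses the brain and heart arrays that span slides, Pla2g4b no longer passed the threshold for liver against muscle (0.69, SE 0.38, adjusted p = 0.13 in limma) or brain against muscle (-0.23, SE 0.30, adjusted p = 0.53 in limma). Pla2g7 no longer did for liver against heart (-0.99, SE 0.44, adjusted p = 0.059 in limma).

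The list of further genes of the pathway held other phospholipases and their regulators, enzymes that load fatty acids into phospholipids, the cyclooxygenase and lipoxygenase branches and the receptors of their products. Of these genes, 74 had a probe. In liver 48 were tested, and none passed the adjusted threshold in limma. At an unadjusted p under 0.05, 8 of the 48 (16.7%) differed, against 11.7% of all genes. Of these, 7 (14.6%) were higher in KI liver, against 7.48% of all genes. The eighth, Ptgds, a prostaglandin D synthase gene, had a difference of -1.37 (SE 0.48), and its genotypes overlapped. The median difference was 0.08 against 0.04 over all genes. Without overlap between genotypes, 9 genes (18.8%) were higher, against 12.2% of all genes. In the other direction 3 of the 48 were lower, against 1057 of all 14084 genes. For either direction it was 12 of the 48, against 19.7% of all genes. The smallest p belonged to Ptgir, the prostacyclin receptor, with a difference of 0.75 (SE 0.19, adjusted p = 0.36 in limma). Next came Ptgs1, the constitutive cyclooxygenase, at 0.58 (SE 0.15, adjusted p = 0.36 in limma), and Tbxas1, thromboxane synthase, at 0.57 (SE 0.16, adjusted p = 0.38 in limma). These 3 are among the 9 without overlap, beside the higher macrophage markers, whose part was not tested.

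None of the pathway genes passed the adjusted threshold in brain (61 tested), heart (58 tested) or muscle (48 tested). At an unadjusted p under 0.05 there were 3 in brain (4.92%, against 0.791% of all genes), 0 in heart (against 1.63%) and 1 in muscle (2.08%, against 0.851%). The smallest p in brain belonged to Ptgir (0.79, SE 0.23), Ptgs2 (-0.38, SE 0.15) and Alox12 (0.47, SE 0.18), each with an adjusted p of 1.0 in limma. Ptgir was well above background on 3 KI but only 2 WT brain arrays, so it passed the filter through the KI group alone. The 3 genes counted in brain include Ptgir, so their share is in part set by this filter. In heart they were Pla2g2c (-0.57, SE 0.28), Dpep1 (0.36, SE 0.19) and Tbxa2r (0.19, SE 0.12), with an adjusted p of 0.97 in limma. In muscle they were Fads1 (0.50, SE 0.20), Alox12 (0.89, SE 0.38) and Ptgir (0.54, SE 0.23), with an adjusted p of 1.0 in limma.

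Terf2ip itself, read by a probe that does not distinguish the mutant base, was well above background on all 24 arrays, and the genotypes overlapped in each tissue. The defining markers of each labelled tissue were high in that tissue. Besides the KI liver of mouse C, the KI brain of mouse C carried hepatocyte transcripts, with a mean over 8 markers of 4.04 against -3.63 to -1.89 in the other brains. With each of these arrays left out, no member passed the threshold between genotypes.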

How the data were processed

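RNA of each sample was measured on 1 Cy3 array. Per the labels and file headers, the authors extracted intensity values with Agilent Feature Extraction. The deposited intensity used here, the processed signal, had been corrected for background but not normalized between arrays. The authors also deposited a score table, which held z-scores of the log signal within each array and served as an alternative.

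Control spots were dropped, as were 121 to 347 outlier spots on each array, and repeat spots were averaged. The log2 signal was taken relative to the array's 75th percentile, a signal of 312.5 to 2519.4. Probes were named through accessions and the GRCm38.p6 gene table, and 21368 genes were named. The probe with the highest mean stood for a gene. A gene was tested in a tissue if all 3 arrays of either genotype had it well above background, and in a tissue pair if this held in either tissue. Tissue pairs and the F-test came from fits of all 24 arrays by tissue and genotype, without the mouse as a block. Tissue differences were averaged over the genotypes. Tests were two-sided and used lmFit and eBayes of limma 3.58.1 (R 4.3.3), adjusted by Benjamini-Hochberg over all genes tested, with a threshold of 0.05. An exact permutation test of 3 against 3 cannot go below 0.1. The number of arrays limits the precision.

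Members and lists were chosen with earlier results of these data known. All members were named, with statistics where genotypes did not overlap or the unadjusted p was under 0.05. Of the pathway list, the 3 genes of smallest p in each tissue were named, with the 5 genes most correlated with Pla2g4f and the 5 genes on each side of it. Arrays of 1 mouse pair across tissues by the animal number in the labels. Deviations from the group means correlated by 0.019 on average within a mouse (range -0.25 to 0.31) over 12213 genes. Columns without a matching sample numbered 0. Marker lists for pancreas, stratified and mammary epithelium, neurons and cardiomyocytes described each array, and their means did not separate the genotypes in any tissue. Some single markers did. In muscle, 4 of 9 mammary and 2 of 12 stratified epithelium markers were higher in every KI array, and 0 were lower. Over all genes tested in muscle, 293 of 13513 were higher in this way.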

Additional observations from a re-analysis of the deposited data

Results flagged for a closer look

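Among 31 sets of 6 arrays of a tissue in which a member was well above background throughout, 3 held an array that stood far from the other 5. Chance alone gives such a gap in about 1 of 20 sets. In heart, KI mouse B was high for Pla2g7 (1.61) and low for Pla2g12a (2.13). In liver, WT mouse D was low for Pla2g16 (2.14). The gap to the nearest array took 0.689, 0.733 and 0.626 of the range of the 6, against a limit of 0.625.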

How the results depend on the processing

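The liver difference of Pla2g4f depended most on the background correction. It was 3.27 on the main scale and 1.59 with normexp correction. On the z-score scale, whose unit is the array's own spread, it was 0.79, and 0.77 in the deposited score table. Leaving out each mouse in turn gave 2.54 to 3.83. No alternative turned its direction.

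The liver differences of Pla2g4a, Pla2g7 and Pla2g15 kept their sign in all 17, 18 and 17 alternatives, with the adjusted p between 0.25 and 0.80. Leaving out 1 mouse gave 0.64 to 0.88, 0.50 to 0.59 and 0.37 to 0.67. Pla2g4f was chosen on the liver contrast and is left out of the counts between genotypes. The number of other members past the threshold between genotypes was 0 in each tissue under every alternative. Counts for tissue pairs, over members measured on all 12 arrays, moved by at most 2 members. Without KI mouse B, some heart and muscle differences turned sign, among them Pla2g4a and Pla2g7 in heart and Pla2g7 and Pla2g12a in muscle, and none was called with or without it. The paired fit, with a replicate block for the mouse, also called 0 members other than Pla2g4f between genotypes. It called 5 of the 7 measured for liver against brain, and its counts for the other tissue pairs were those of the main fit. The slide as a block for tissue pairs was chosen after seeing the data. In arrays of WT mice alone, Pla2g4b no longer passed for liver, brain or heart against muscle. There Pla2g7, read by its brighter probe, passed for brain against muscle. Since no WT liver had Pla2g4f well above background, the size of its fold is uncertain.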
